A study of Mesocricetus auratus with 24 samples.

Results

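The regions described here are 1466 windows of 1 kb that hold few CpG positions and were highly methylated in vehicle-treated Syrian hamster fetal cell colonies. They were taken from 22842 windows with at least 3 measured CpG positions in each of 24 libraries, of which they make up 6.42%. A window was kept when all files together listed 15 or fewer distinct positions in it, with strands counted apart, and when its methylation level averaged 80% or more in the 4 vehicle pools. The level of a window is the share of its reads that carried a methylated C, summed over its positions. Of the 4007 windows with 15 or fewer positions, 36.6% met the level threshold. Because the vehicle pools chose the windows, their levels there are a description and no test was made against them.

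The study followed DNA methylation through a Syrian hamster cell transformation assay, in which colonies grown from fetal cells are exposed to a carcinogen and those of disordered growth are scored as transformed. Cells received benzo[a]pyrene, or B[a]P, which is a combustion product whose metabolites form adducts with DNA. Reduced representation bisulfite sequencing was used, which reads fragments of restriction-digested DNA after unmethylated cytosines have been converted. The libraries fell into 6 groups of 4. The bypass culture was sampled on day 94, after it had passed through senescence, and the senescent culture on day 48. Both were sampled from 1 culture grown from a morphologically transformed colony treated with 5 µg/mL B[a]P, in an assay on pooled female and male fetuses, and the culture was typed as male. Their 4 libraries each are technical replicates, so that p-values between bypass and senescent libraries measure technical spread in 1 culture. Against the B[a]P pools, p-values mix that technical spread with the spread between pools. Neither kind extends to other cultures. Transformed-colony and normal-colony cultures were expanded for 19 to 25 days from colonies treated with 5 µg/mL B[a]P that had transformed or normal morphology. The B[a]P pools and the vehicle pools were each made of about 60 colonies collected on day 9, after 5 µg/mL B[a]P or after 0.2% DMSO. Colony cultures and pools came from assays on cells from a single male fetus, per the labels, and were described as biological replicates. Every group except the vehicle pools had received B[a]P. Time in culture changes together with the source of the cells, the number of colonies behind a library and the kind of replicate, and these cannot be told apart. No expression was measured, so the labelled cells were not checked against marker genes.

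In mammalian somatic cells most CpG-poor DNA is methylated, while CpG-dense islands are mostly free of methylation. After each round of replication a maintenance methyltransferase, DNMT1 with its partner UHRF1, restores the mark on the new strand. In cultured human and mouse cells, long CpG-poor and late-replicating domains are known to lose methylation as divisions accumulate, and isolated CpGs are the most affected. The rule used here counts positions that the assay listed, which is not the CpG density of the DNA: the 14 listed positions of the window on KB708345.1 from 261001 all lay between 261051 and 261153.

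The windows lay on 282 of the 977 scaffolds with measured windows, and 44 of them lay on short contigs with names that begin with APMT. Over all files they held a median of 10 positions, with a range of 3 to 15. In a single library the median window held 5 to 7 positions and 253 to 560.5 reads, where a read over several positions is counted once for each. Libraries listed 809562 to 1484688 positions with a total coverage of 30316233 to 67276906 and a median of 21 to 38 reads per position. In the vehicle pools the windows averaged 89.4%, with a range of 80.0% to 100%, and 672 of them were at 90% or more. The 3 windows just inside the threshold were at 80.01% in the vehicle pools. The 3 sparse windows just outside it were at 79.95% to 79.97%. Coordinates are those of the deposited files, by scaffold. No genes are named at these windows, since no annotation of the same build was used here.

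The mean level of the windows was higher in the bypass, senescent and transformed-colony libraries than in the B[a]P pools, so that no loss with time showed in the mean. With windows chosen on the B[a]P pools instead, described further on, these differences were near 0 or below it. That choice keeps windows with high B[a]P levels, so the differences there are set in part by it. The level was 90.19%, 90.39%, 90.21% and 90.44% in the 4 bypass libraries. The senescent libraries were at 89.31%, 90.12%, 89.35% and 89.29%. The transformed-colony libraries stood at 88.06%, 88.50%, 89.35% and 89.01%, and the normal-colony libraries at 86.81%, 85.42%, 89.42% and 87.81%. The B[a]P pools stood at 87.02%, 87.77%, 87.86% and 87.64%, and the vehicle pools that chose the windows at 89.73%, 89.39%, 89.43% and 89.07%. All libraries of the bypass, senescent and transformed-colony groups were above all B[a]P pools, while the normal-colony libraries spread on both sides of them. All bypass libraries were also above all senescent libraries.

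As group means the level was 90.31% ± 0.13 in bypass, 89.52% ± 0.40 in senescent, 88.73% ± 0.57 in transformed-colony, 87.36% ± 1.68 in normal-colony and 87.57% ± 0.38 in B[a]P libraries (SD, n = 4 each). The bypass mean was thus 2.74 points above the B[a]P mean, the senescent mean 1.94 points above it, and the transformed-colony mean 1.16 points above it, while normal-colony minus B[a]P was -0.21 points. These 4 differences share the B[a]P libraries. Over all 22842 windows, whose levels were far lower, the same differences were 5.74, 3.12, 1.33 and 0.01 points. Windows with more than 15 positions at 80% or more in vehicle pools, 2046 in number, gave 3.41, 2.33, 1.65 and 0.05 points for bypass, senescent, transformed-colony and normal-colony cultures, against 2.74, 1.94, 1.16 and -0.21 points in the sparse windows. A mean over chosen windows is given without a test.

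**Figure D1:**
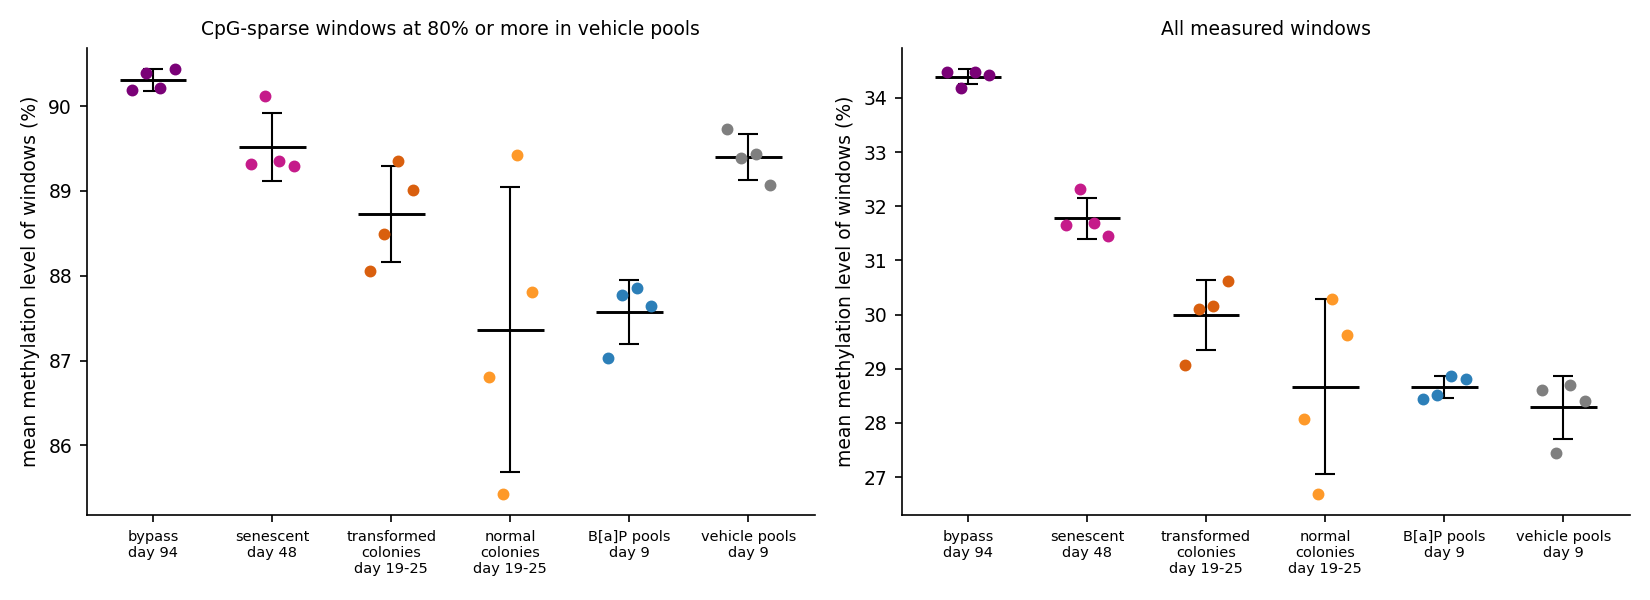
Mean methylation level (%) of the 1466 sparse methylated windows (left) and of all 22842 measured windows (right) in each library; points are libraries, lines are group means and bars are SD (n = 4). The axes do not start at 0. Bypass libraries lie between 90.19% and 90.44% in the left panel and above all B[a]P pools, which lie between 87.02% and 87.86%; the normal-colony libraries spread from 85.42% to 89.42%.

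Normal-colony replicate 2 stood apart from the other libraries. Its read-weighted methylation over all positions was 26.0%, against 45.5% to 47.4% in the other normal-colony libraries and 38.8% to 52.5% in the remaining groups. Without it the normal-colony mean of the sparse methylated windows was 0.44 points above the B[a]P mean, against -0.21 points with it. The sign of that difference rests on this library. The transformed-colony mean was 1.36 points above the normal-colony mean, and 0.72 points above it without that library, and the 2 groups' libraries overlapped.

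The B[a]P minus vehicle difference was -1.83 points in these windows and 0.37 points over all windows. The first value is set in part by the choice of windows. Windows were also chosen on 3 vehicle pools and read in the vehicle pool left out, for each of the 4 pools. In the windows so chosen the B[a]P pools averaged 87.1%, 87.4%, 87.0% and 87.2%, against 87.3%, 85.5%, 87.0% and 87.0% in the left-out vehicle pool. The 3 choosing pools averaged 89.6% to 89.8%. Choosing by the B[a]P pools in place of the vehicle pools gave 1509 windows, 1220 of them among the 1466. In those the bypass mean was 89.88% ± 0.09, the senescent mean 89.51% ± 0.40, the transformed-colony mean 88.58% ± 0.81, the normal-colony mean 87.24% ± 1.83, the B[a]P mean 89.56% ± 0.93 and the vehicle mean 86.93% ± 0.97 (SD, n = 4 each). Whichever pools chose the windows had the higher of the 2 pool means there, and in the rest of the text the B[a]P pools are the day 9 level. With windows chosen by the B[a]P pools themselves, the differences from those pools were 0.32 points for bypass, -0.05 for senescent, -0.98 for transformed-colony and -2.32 for normal-colony cultures. Both of these choices of windows were made after seeing the data.

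Behind the means, more windows stood near full methylation in the bypass and senescent culture. The share of the windows at 95% or more was 48.6%, 50.7%, 49.8% and 51.7% in the bypass libraries, and 41.5%, 53.1%, 40.8% and 45.0% in the senescent libraries. It was 36.1% to 42.2% in transformed-colony, 33.6% to 42.9% in normal-colony, 26.5% to 40.6% in B[a]P and 30.6% to 45.2% in vehicle libraries. All bypass and all senescent libraries were above all B[a]P pools. The means were 50.2% ± 1.33 in bypass, 45.1% ± 5.62 in senescent and 33.5% ± 5.90 in B[a]P libraries (SD, n = 4 each). Libraries with fewer positions per window tended to have more windows at the upper end: the 5 libraries with a median of 5 positions per window had 27.6% to 35.7% of the windows at exactly 100%, and the 19 others had 11.1% to 28.1%. These 5 are 1 library each of the bypass, senescent, normal-colony, B[a]P and vehicle groups. The part of this in the shares was not tested.

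At the other end, 16.4% to 16.8% of the windows were under 80% in bypass, 17.7% to 19.4% in senescent, 17.3% to 20.7% in transformed-colony, 18.1% to 29.1% in normal-colony and 20.4% to 22.9% in B[a]P libraries. By group mean, 657 windows were at 95% or more in bypass, 592 in senescent, 421 in transformed-colony, 348 in normal-colony and 281 in B[a]P libraries. Windows under 50% by group mean were few, with 8 in bypass, 8 in senescent, 1 in transformed-colony, 2 in normal-colony and 1 in B[a]P libraries. By single library the share under 50% was 1.36% to 1.71% in bypass, 0.82% to 2.11% in senescent and 0.89% to 2.32% in B[a]P libraries. It was 0.68% to 1.64% in transformed-colony and 1.30% to 4.77% in normal-colony libraries, so single libraries did not show that order. The standard deviation of the group means over the 1466 windows was 10.3 points in bypass, 10.1 in senescent, 8.82 in transformed-colony, 9.53 in normal-colony and 8.46 in B[a]P libraries. Group means were thus more spread over the windows in the bypass and senescent culture. The median window's SD between libraries was smaller there, at 4.71 points in bypass and 5.08 in senescent against 7.36 in B[a]P libraries. The bypass and senescent libraries are technical replicates of 1 culture, and the B[a]P libraries are separate pools.

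**Figure D2:**
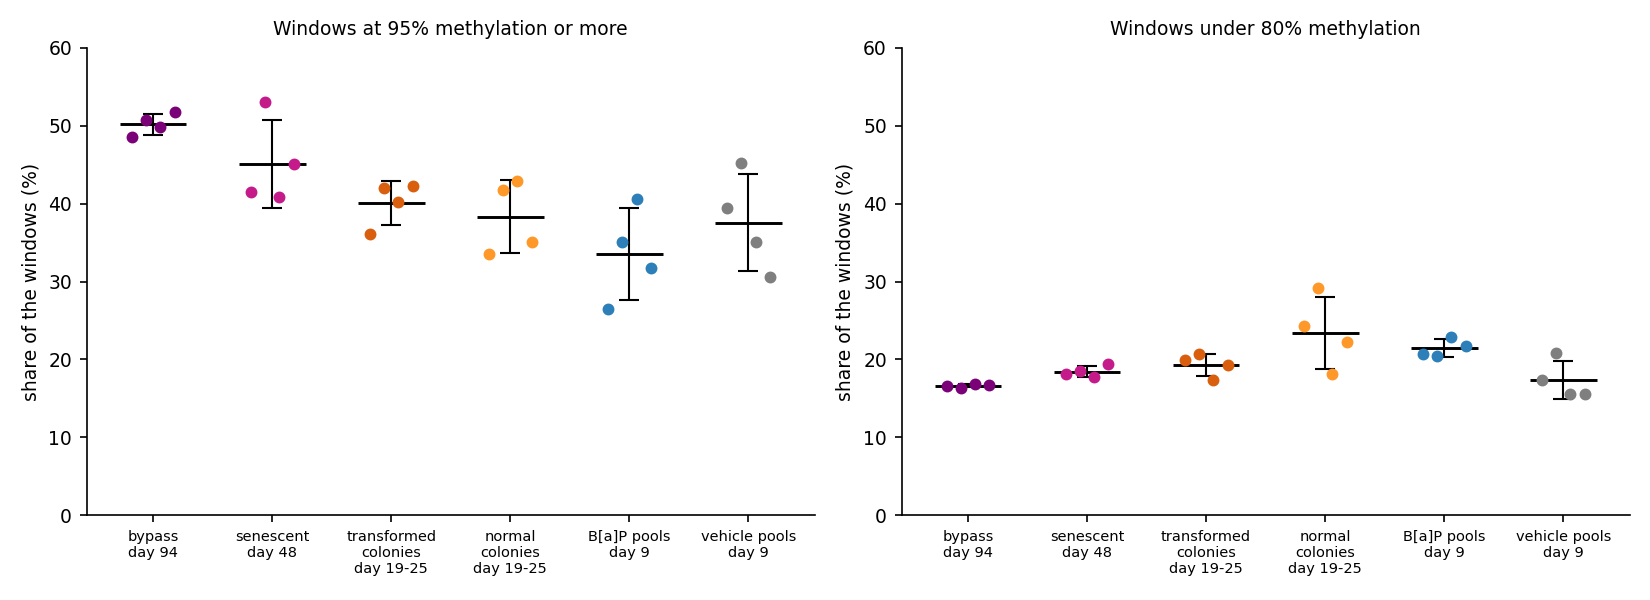
Share of the 1466 sparse methylated windows (%) at 95% methylation or more (left) and under 80% (right) in each library; points are libraries, lines are group means and bars are SD (n = 4). In the left panel the bypass libraries lie between 48.6% and 51.7% and the B[a]P pools between 26.5% and 40.6%; in the right panel bypass lies between 16.4% and 16.8% and the B[a]P pools between 20.4% and 22.9%.

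Single positions gave the same order of groups for the share at 95% or more by group mean. Of the 14307 positions in these windows, 4707 in 1204 windows were listed in at least 3 libraries of every group. By group mean, 63.1% of them were at 95% or more in bypass, 58.9% in senescent, 49.3% in transformed-colony, 47.8% in normal-colony, 42.2% in B[a]P and 45.8% in vehicle libraries. Positions under 50% numbered 193 in bypass, 185 in senescent, 121 in transformed-colony, 152 in normal-colony, 103 in B[a]P and 83 in vehicle libraries. Positions under 20% numbered 53 in bypass, 28 in senescent and 14 in B[a]P libraries. Positions under 80% made up 15.4% in bypass, 17.1% in senescent and 20.9% in B[a]P libraries. By group mean, the bypass and senescent culture thus had fewer positions under 80% than the B[a]P pools and more under 50%. These position counts are of means over technical replicates or over separate pools, and are not given by library.

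Bypass libraries had the highest mean at every degree of sparseness within the class. In windows with 3 to 6 positions, 299 in all, the mean level was 90.23% ± 0.29 in bypass and 88.00% ± 0.59 in B[a]P libraries. The 385 windows with 13 to 15 positions were at 90.75% ± 0.49 in bypass and 86.98% ± 0.46 in B[a]P libraries (SD, n = 4 each). In these classes, and in those of 7 to 9 and 10 to 12 positions, the bypass mean was the highest of the 6 groups.

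Windows 1 kb beside the sparse methylated windows were less methylated than these, which had been chosen at 80% or more. Measured windows directly next to them numbered 83, 14 of them members of the set themselves, with a median of 24 positions. Their level was 67.5% ± 0.75 in bypass, 65.9% ± 1.27 in senescent, 65.2% ± 1.56 in transformed-colony, 62.8% ± 2.34 in normal-colony and 62.2% ± 1.01 in B[a]P libraries (SD, n = 4 each). At 10 kb, 68 windows averaged 45.9% ± 0.72 in bypass and 37.8% ± 0.67 in B[a]P libraries. The bypass minus B[a]P difference was 5.28 points at 1 kb and 8.09 points at 10 kb, against 2.74 points in the sparse methylated windows, whose levels were closer to 100%. The 62.2% at 1 kb in B[a]P libraries was above the 28.7% of all windows. It was also above the 23.2% of windows 1 kb beside sparse windows under 80% in vehicle pools, which held a median of 51 positions.

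Group means that moved 1 way from stage to stage were more often upward. Along the order of B[a]P pools, transformed-colony, senescent and bypass cultures, the group mean was lower at each step in 45 windows (3.07%) and higher at each step in 150 (10.2%). Over all 22842 windows these shares were 2.78% and 16.1%. A stepwise decrease that ended at least 10 points below the B[a]P pools was found in 33 of the sparse methylated windows (2.25%) and in 1.22% of all windows. A stepwise increase that ended at least 10 points above them was found in 80 (5.46%) and in 10.01% of all windows. With normal-colony in place of transformed-colony cultures the counts were 35 and 76. In 11 windows (0.75%) all 4 later groups were at least 10 points below the B[a]P pools, against 0.718% of all windows. In 45 (3.07%) all were at least 10 points above, against 2.65% of all windows. These counts carry no test, and the steps cross different cultures. All windows had less room to fall and more to rise, with a median B[a]P group mean of 4.19% against 89.1% in the sparse methylated windows.

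Windows were tested one by one on their methylated and unmethylated reads with a quasi-binomial logistic model. It was fitted on all 22842 windows, with Benjamini-Hochberg adjustment over all of them. Calls needed an adjusted p below 0.05 and a difference of at least 10 points between the group means. The vehicle pools that chose the windows entered none of these tests. In simulated windows without a change, 6.65% to 7.01% had an unadjusted p below 0.05 in this test, depending on the comparison. Unadjusted counts below are thus somewhat too high.

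The bypass culture against the B[a]P pools addressed the longest time in culture. Of the 1466 sparse methylated windows, 21 (1.43%) were called lower in bypass, where 0.928% of all windows were called lower. Another 88 (6.003%) were called higher, where 13.2% of all windows were called higher. Room to fall or rise differs between these sets, here and in the comparisons below. The median B[a]P group mean was 89.1% in the sparse methylated windows and 4.19% over all windows. Windows with 15 or fewer positions that were under 80% in vehicle pools were called lower in 3.90% and higher in 12.9%. The part of such room in these shares was not tested. The 21 lower windows lay on 19 scaffolds and differed by 11.8 to 45.4 points, with a median of 22.7. They averaged 62.7% ± 2.38 in bypass, 77.2% ± 2.27 in senescent, 80.3% ± 4.72 in transformed-colony, 78.3% ± 2.84 in normal-colony, 87.4% ± 3.20 in B[a]P and 84.7% ± 1.08 in vehicle libraries (SD, n = 4 each). The bypass and B[a]P values were used to pick these 21 windows and are a description. The 88 higher windows lay on 68 scaffolds and averaged 97.1% ± 0.42 in bypass, 92.7% ± 0.79 in senescent, 87.4% ± 1.94 in transformed-colony, 86.4% ± 2.99 in normal-colony, 78.2% ± 0.77 in B[a]P and 87.4% ± 0.81 in vehicle libraries. In 68 of the 88, the bypass mean was at 95% or more. The bypass and B[a]P values picked these 88 windows too and are a description. Vehicle pools were held at 80% or more by the choice of windows in both lists. The libraries of the 2 groups did not overlap in 42 windows with bypass lower (2.86%, against 1.64% of all windows) and in 117 with bypass higher (7.98%, against 16.2% of all windows). In the denser class at 80% or more in vehicle pools, 31 of 2046 windows were called lower (1.52%) and 175 higher (8.55%). edgeR's quasi-likelihood test called 2 of the sparse methylated windows lower (0.136%, against 0.035% of all windows) and 10 higher (0.682%, against 0.565% of all windows). In windows chosen on the B[a]P pools, whose values enter this test, 43 were called lower (2.85%) and 56 higher (3.71%).

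**Figure D3:**
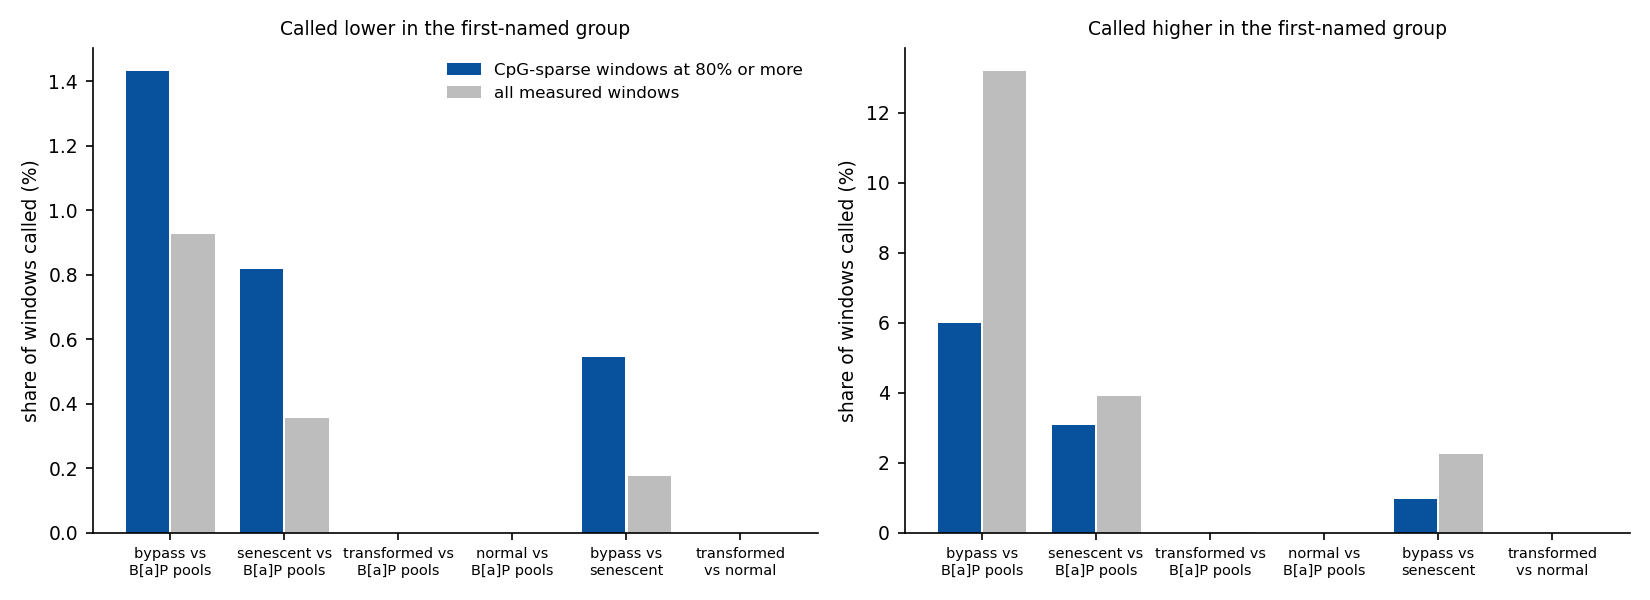
Share of windows (%) called lower (left) and higher (right) in the first-named group of each of 6 comparisons; blue bars are the 1466 sparse methylated windows and grey bars all 22842 windows, and the 2 panels have different scales. In bypass against B[a]P pools, 1.43% of the sparse methylated windows and 0.928% of all windows were called lower, and 6.003% and 13.2% higher; neither comparison of colony cultures with the pools, nor that between them, called a sparse methylated window.

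The largest called decrease in bypass was on KB708312.1, positions 1241001 to 1242000. The level was 48.8%, 55.6%, 37.97% and 38.7% in the bypass libraries, against 90.2%, 89.9%, 91.1% and 91.4% in the B[a]P libraries. All bypass libraries were far below every other library, the lowest of which was normal-colony replicate 1 at 76.0%. The means were 45.3% ± 8.46 in bypass, 92.3% ± 4.81 in senescent, 94.5% ± 3.18 in transformed-colony, 90.2% ± 9.46 in normal-colony, 90.6% ± 0.70 in B[a]P and 87.0% ± 3.81 in vehicle libraries (SD, n = 4 each). The difference from the B[a]P pools was -45.4 points (adjusted p = 9.3e-06) and from the senescent culture -47.1 points (adjusted p = 0.00016). The first call held in all 16 alternatives that could be fitted, edgeR included (adjusted p = 0.0486). The second held in all but edgeR (adjusted p = 0.255).

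That window had 4 positions and 922 to 3526 reads per library. It was low at each of the 3 positions that all 24 libraries listed, which lie close together on the forward strand. Position 1241968 averaged 53.8% in bypass and 92.5% in senescent libraries. Position 1241975 averaged 48.3% in bypass and 88.8% in senescent libraries. Position 1241982 averaged 34.1% in bypass and 95.5% in senescent libraries. Neighbouring positions on 1 strand are read together from the same fragments and are not separate measurements of the culture. In bulk DNA, a level near the middle cannot tell a mixture of methylated and unmethylated cells from methylation of part of the copies in each cell.

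On KB708142.1, positions 6709001 to 6710000, the level was 53.7%, 55.6%, 66.9% and 41.4% in the bypass libraries, against 91.9%, 89.1%, 100% and 100% in the B[a]P libraries. The groups did not overlap. The senescent libraries, at 74.3%, 100%, 88.6% and 83.2%, were above all bypass libraries and overlapped the B[a]P libraries. The difference from the B[a]P pools was -40.8 points (adjusted p = 0.00251), and the call held in every alternative except edgeR (adjusted p = 0.176). Its difference of -32.1 points from the senescent culture (adjusted p = 0.0356) was lost in 11 of 17 alternatives. The change was uneven along the window: position 6709835 averaged 9.09% in bypass and 100% in B[a]P libraries, while position 6709793 was at 100% in both, each in 3 libraries a group.

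On KB708177.1, positions 3483001 to 3484000, the level was 59.3%, 55.2%, 74.6% and 67.5% in the bypass libraries, against 96.9%, 84.1%, 98.8% and 100% in the B[a]P libraries. The difference was -30.8 points (adjusted p = 0.0248), and it was lost in 5 of 15 alternatives. Levels there were widely spread in the other groups, with 54.4% to 100% among transformed-colony and 56.0% to 100% among vehicle libraries.

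The largest called increases in bypass were in windows with low levels in the B[a]P pools, as large increases must be where levels cannot pass 100%. On KB708147.1, positions 4210001 to 4211000, the level was 91.7%, 100%, 86.3% and 100% in bypass libraries, against 33.3%, 66.7%, 67.6% and 60.8% in B[a]P libraries, a difference of 37.4 points (adjusted p = 0.016). The groups did not overlap, but the call was lost in 4 of 15 alternatives. On APMT01217438.1, positions 3001 to 4000, the means were 96.1% ± 4.53 in bypass and 59.3% ± 20.1 in B[a]P libraries (adjusted p = 0.0191). On KB708167.1, positions 6893001 to 6894000, they were 95.7% ± 5.66 in bypass and 63.1% ± 14.7 in B[a]P libraries (SD, n = 4 each, adjusted p = 0.00743). Neither of these was called by edgeR (adjusted p = 0.176 and 0.192). On KB708147.1, APMT01217438.1 and KB708167.1 the B[a]P pools had the lowest mean of the 6 groups. The vehicle pools, held at 80% or more by the choice of windows, averaged 81.1%, 80.5% and 81.1% there.

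The senescent culture against the B[a]P pools gave fewer calls. Of the sparse methylated windows, 12 (0.82%) were called lower in senescence, where 0.355% of all windows were, and 45 (3.07%) were called higher, where 3.91% of all windows were. The 12 lower windows averaged 67.0% ± 4.28 in senescent, 77.4% ± 2.82 in bypass and 87.0% ± 3.02 in B[a]P libraries (SD, n = 4 each). The 45 higher windows averaged 97.8% ± 0.88 in senescent, 95.3% ± 1.17 in bypass and 79.4% ± 1.35 in B[a]P libraries. Senescent and B[a]P values picked these 12 and 45 windows and are a description. Libraries of both groups were apart, with no overlap, in 37 windows with the senescent culture lower (2.52%, against 1.47% of all windows) and in 102 with it higher (6.96%, against 8.88% of all windows). In the denser class 10 of 2046 windows were called lower (0.49%) and 68 higher (3.32%). edgeR called 0 of the sparse methylated windows in either direction, where it called 0% of all windows lower and 0.00876% higher. An unadjusted p under 0.05 was found in 312 in the quasi-binomial test (21.3%, against 22.2% of all windows) and in 140 in edgeR (9.55%, against 10.4% of all windows). These counts were smaller whichever library was left out, which also leaves fewer libraries in the fit. Windows called lower numbered 6 without senescent replicate 3 and 4 without B[a]P replicate 4. Those called higher numbered 22, 22, 23 and 23 without senescent replicates 1 to 4, and 20, 32, 33 and 26 without B[a]P replicates 1 to 4. Over all windows, 0.25% to 0.285% were called lower and 2.61% to 2.99% higher with 1 of these libraries left out.

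On KB708244.1, positions 1016001 to 1017000, the level was 17.4%, 55.6%, 44.6% and 45.3% in senescent libraries, against 86.6%, 68.2%, 81.1% and 82.0% in B[a]P libraries, a difference of -38.8 points (adjusted p = 0.0235). The groups did not overlap. The bypass libraries of the same culture, at 52.6%, 56.3%, 73.7% and 85.6%, overlapped both. On KB708252.1, positions 1586001 to 1587000, it was 46.7%, 47.3%, 47.0% and 50.4% in senescent libraries, against 65.7%, 75.9%, 100% and 100% in B[a]P libraries (adjusted p = 0.0413). Both calls were among the less stable, lost in 6 of 16 and in 11 of 15 alternatives.

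On KB708127.1, positions 18033001 to 18034000, the level was 70.7%, 79.1%, 74.0% and 66.9% in senescent libraries, against 86.6%, 92.4%, 92.1% and 86.5% in B[a]P libraries. All senescent libraries were also below all bypass libraries, which were at 84.9% to 90.1%. The difference from the B[a]P pools was -16.7 points (adjusted p = 0.0106), lost without squeezing of dispersions (adjusted p = 0.0617) and in edgeR (adjusted p = 0.495). It sat at 2 of the 3 positions listed in all 24 libraries. Position 18033901 averaged 62.1% in senescent, 98.01% in bypass and 83.6% in B[a]P libraries. Position 18033908 averaged 68.5% in senescent, 71.5% in bypass and 93.8% in B[a]P libraries, so that bypass was low there too. Position 18033918 averaged 87.6% in senescent, 93.6% in bypass and 90.9% in B[a]P libraries.

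Among the increases in senescence, KB708157.1, positions 5788001 to 5789000, was at 100%, 100%, 99.1% and 100% in senescent libraries, against 68.9%, 66.3%, 60.6% and 91.3% in B[a]P libraries (difference 27.98 points, adjusted p = 0.00231). The bypass libraries were at 91.3% to 98.8%. The call was lost in 2 of 17 alternatives, without squeezing (adjusted p = 0.064) and in edgeR (adjusted p = 0.222). On KB708345.1, positions 261001 to 262000, the means were 95.8% ± 4.43 in senescent and 65.7% ± 19.95 in B[a]P libraries (adjusted p = 0.042). On KB708129.1, positions 35022001 to 35023000, they were 100% ± 0 in senescent and 71.6% ± 22.8 in B[a]P libraries (SD, n = 4 each, adjusted p = 0.0364). Each of these was lost in 10 alternatives. On KB708157.1, KB708345.1 and KB708129.1 the B[a]P pools had the lowest mean of the 6 groups. The vehicle pools, held at 80% or more by the choice of windows, averaged 90.8%, 83.2% and 95.2% there.

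**Figure D4:**
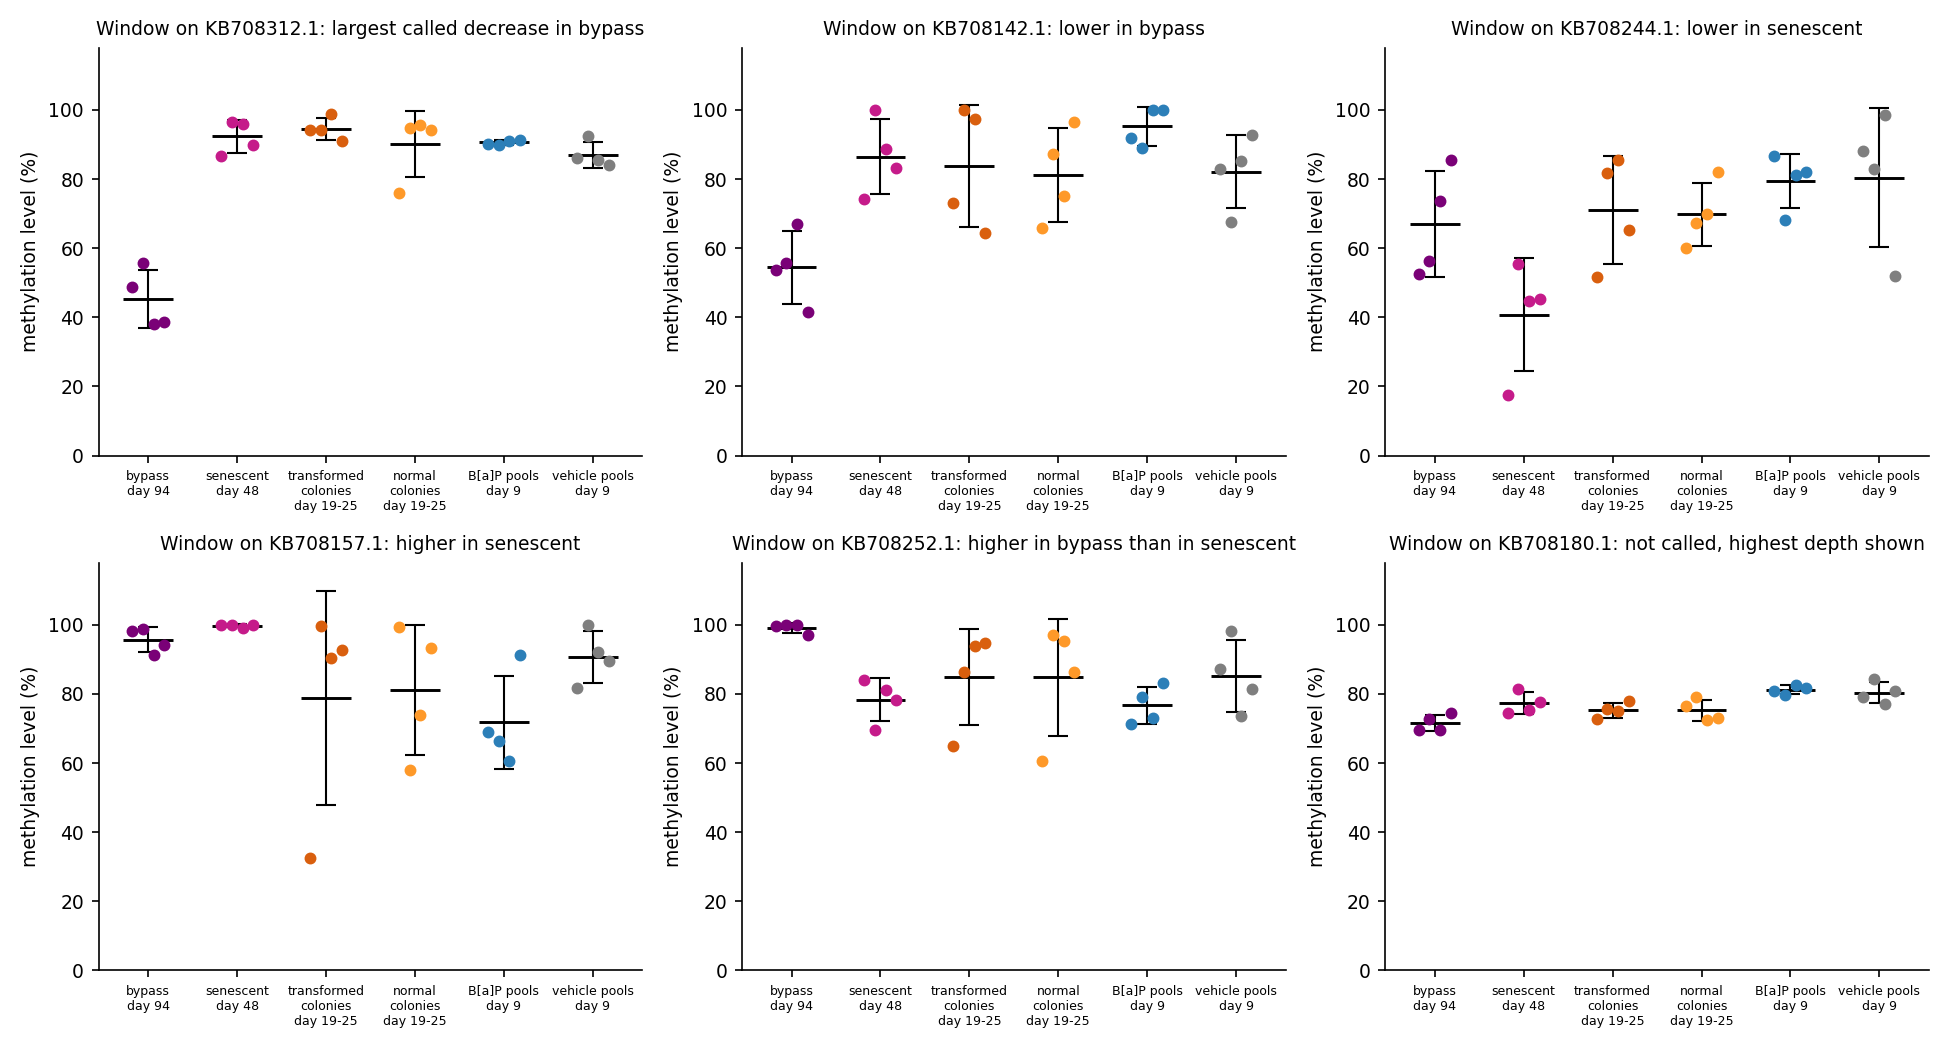
Methylation level (%) of 6 windows in each library; points are libraries, lines are group means and bars are SD (n = 4), which can pass 100%. On KB708312.1 the bypass libraries lie between 37.97% and 55.6% and all others at 76.0% or more. On KB708244.1 the senescent libraries are lowest in the mean, and on KB708180.1, the window of highest read depth shown, bypass libraries lie between 69.6% and 74.4% and B[a]P pools between 79.7% and 82.6%.

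The bypass culture against the senescent culture addressed what differed after senescence had been passed. In the sparse methylated windows 8 (0.55%) were called lower in bypass, where 0.175% of all windows were, and 14 (0.95%) were called higher, where 2.25% of all windows were. The 8 lower windows averaged 65.9% ± 3.35 in bypass, 90.1% ± 1.95 in senescent and 89.3% ± 3.44 in B[a]P libraries. The 14 higher windows averaged 95.7% ± 0.92 in bypass, 80.0% ± 1.37 in senescent and 87.4% ± 0.52 in B[a]P libraries (SD, n = 4 each). Bypass and senescent values picked these 8 and 14 windows and are a description. The B[a]P values did not enter this comparison. Groups were apart in 35 windows with bypass lower (2.39%, against 1.27% of all windows) and in 47 with bypass higher (3.21%, against 6.93% of all windows). edgeR called 0 in either direction, where it called 0% of all windows lower and 0.00438% higher. An unadjusted p under 0.05 was found in 229 in the quasi-binomial test (15.6%, against 18.7% of all windows) and in 104 in edgeR (7.09%, against 7.86% of all windows). Lower windows numbered 3, 3, 2 and 3 without senescent replicates 1 to 4 and 4 without bypass replicate 2. Higher windows numbered 9, 9 and 8 without senescent replicates 1, 3 and 4 and 7, 7 and 9 without bypass replicates 1 to 3. Over all windows, 0.0613% to 0.123% were called lower and 1.06% to 1.79% higher with 1 library of either group left out.

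Of the calls with no overlap between the groups, the largest decreases were on KB708312.1, on KB708127.1 from 3701001 to 3702000 and on KB708142.1, in that order. The window on KB708127.1 was at 49.8%, 83.9%, 64.3% and 48.6% in bypass, against 94.98%, 89.0%, 94.5% and 99.4% in senescent libraries (adjusted p = 0.0412), and was lost in 11 of 15 alternatives. The smallest read count behind a library there was 38. Of the increases, KB708252.1, positions 3404001 to 3405000, was at 99.7%, 100%, 100% and 97.0% in bypass, against 84.2%, 69.7%, 81.2% and 78.3% in senescent libraries. Its difference of 20.8 points (adjusted p = 0.00762) was lost in 2 of 17 alternatives, without squeezing (adjusted p = 0.0578) and in edgeR (adjusted p = 0.366). KB708127.1, positions 34421001 to 34422000, was at 99.6% ± 0.71 in bypass and 77.5% ± 9.21 in senescent libraries (adjusted p = 0.044). KB708166.1, positions 4487001 to 4488000, was at 90.5% ± 6.95 in bypass and 71.5% ± 4.35 in senescent libraries (SD, n = 4 each, adjusted p = 0.0379). These were lost in 12 of 17 and in 10 of 16 alternatives.

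Read coverage was lower in bypass than in senescent libraries over 10 scaffolds, which held 33 of the sparse methylated windows. There the mean level was 90.66% ± 1.47 in bypass, 89.45% ± 1.49 in senescent and 87.70% ± 1.43 in B[a]P libraries (SD, n = 4 each). Against the senescent culture, 2 of the 14 higher calls and 0 of the 8 lower calls were among them. With these scaffolds left out of the fit, 9 windows were called higher.

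In the colony cultures no single sparse methylated window passed the test, which finds few changes of moderate size. It recovered 7%, 7% and 8% of simulated decreases of 20 points, and 43%, 39% and 38% of those of 40 points. These values are for transformed-colony against B[a]P, normal-colony against B[a]P, and transformed-colony against normal-colony libraries. Recovery was also limited where windows were called. It was 11% and 46% for bypass against B[a]P, 16% and 64% for senescent against B[a]P, and 20% and 67% for bypass against senescent libraries. The changed windows were drawn from all windows of middle to high pooled level, not from the sparse methylated windows alone. The absence of calls does not show that no window changed. Transformed-colony cultures against B[a]P pools gave 0 sparse methylated windows in either direction by the quasi-binomial test, where 0% of all windows were called lower and 0.00876% higher. At an unadjusted p under 0.05 there were 39 lower and 109 higher, together 10.1% of the sparse methylated windows, against 10.6% of all windows. Without overlap between groups, transformed-colony cultures were lower in 13 windows (0.887%, against 0.849% of all windows) and higher in 36 (2.46%, against 2.75% of all windows). edgeR, limma on arcsine levels and the fit without squeezing called 0 each. The smallest adjusted p was 0.266. It belonged to KB708130.1, positions 3224001 to 3225000, at 99.3% ± 1.29 in transformed-colony and 81.0% ± 6.62 in B[a]P libraries, and to KB708294.1, positions 2771001 to 2772000, at 99.0% ± 1.11 in transformed-colony and 84.5% ± 8.50 in B[a]P libraries. It belonged also to KB708228.1, positions 3796001 to 3797000, at 100% ± 0 in transformed-colony and 89.4% ± 4.74 in B[a]P libraries (SD, n = 4 each). Of these, KB708294.1 passed when only windows with a pooled level of 5 to 95% were tested (adjusted p = 0.0387). That level is pooled over the libraries compared, so highly methylated windows are kept mainly when 1 group is lower. The pass is therefore not separate support.

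Normal-colony cultures against B[a]P pools also gave 0 windows in either direction, with 0% of all windows called in each. Those at an unadjusted p under 0.05 numbered 48 lower and 66 higher, together 7.78%, against 8.91% of all windows, and edgeR, limma and the fit without squeezing called 0 each. Normal-colony cultures were lower without overlap in 25 windows (1.71%, against 1.1% of all windows) and higher in 22 (1.501%, against 1.88% of all windows). The 3 windows of smallest p had an adjusted p of 0.539. The best covered of them was on KB708180.1, positions 6660001 to 6661000, with 12123 to 23245 reads per library. It was at 76.6%, 79.1%, 72.5% and 73.1% in normal-colony libraries, against 81.0%, 79.7%, 82.6% and 81.6% in B[a]P libraries. Bypass libraries were at 69.6%, 72.6%, 69.6% and 74.4%, senescent libraries at 74.5% to 81.5% and transformed-colony libraries at 72.7% to 78.0%. The other 2 were KB708282.1, positions 3683001 to 3684000, at 97.6% ± 2.96 in normal-colony and 71.5% ± 13.7 in B[a]P libraries, and APMT01213469.1, positions 1001 to 2000, at 66.4% ± 8.08 in normal-colony and 93.9% ± 4.08 in B[a]P libraries (SD, n = 4 each).

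Transformed-colony against normal-colony cultures, the comparison of morphology, gave 0 windows in either direction, with 0% of all windows called in each. Those at an unadjusted p under 0.05 numbered 39 lower and 83 higher, together 8.32%, against 8.80% of all windows, and edgeR, limma and the fit without squeezing called 0 each. The groups did not overlap in 15 windows with transformed-colony cultures lower (1.02%, against 0.749% of all windows) and in 21 with them higher (1.43%, against 1.48% of all windows). The 3 windows of smallest p, on KB708157.1 from 15838001 to 15839000, KB708147.1 from 4097001 to 4098000 and KB708214.1 from 8870001 to 8871000, differed by -24.3, 6.35 and -15.4 points (adjusted p = 0.563 each), and their groups overlapped.

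At a larger scale the sparse methylated windows were too scattered to form long blocks. They fell in 1239 bins of 250 kb, of which 1054 held a single one, 150 held 2, 29 held 3, 5 held 4 and 1 held 5. No bin held 10. The bin with 5 was on KB708161.1, positions 14500001 to 14750000. It was at 93.0% ± 2.08 in bypass, 88.7% ± 4.72 in senescent, 89.5% ± 2.52 in transformed-colony, 82.0% ± 6.34 in normal-colony and 87.1% ± 2.52 in B[a]P libraries (SD, n = 4 each). The mean of the 4 later groups was 1.18 points above the B[a]P pools there and -1.59 points from them when windows were weighted by reads, both within 1 SD of the B[a]P libraries.

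The 35 bins with 3 or more of the windows, a limit set after seeing the data, held 112 windows. Averaged over the 4 later groups they lay 2.52 points above the B[a]P pools, and 1.63 points above them when windows were weighted by reads. The unweighted means ran from -5.79 points on KB708327.1, positions 500001 to 750000, to 14.3 points on KB708174.1, positions 11000001 to 11250000. In 9 of the 35 bins this mean was below 0, and in 4 all later groups were below the B[a]P pools. None of the 35 was lower by 10 points, in that mean or in any single later group, and 2 were higher by 10 points in that mean. Of these 2, the bin on KB708147.1, positions 4000001 to 4250000, was 10.02 points above the B[a]P pools and 3.35 points above them when weighted by reads.

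The bin on KB708174.1 was at 97.2% ± 2.06 in bypass, 93.1% ± 2.06 in senescent, 91.5% ± 5.48 in transformed-colony, 89.2% ± 3.73 in normal-colony, 78.5% ± 13.8 in B[a]P and 92.4% ± 5.07 in vehicle libraries. The B[a]P pools were the lowest group there and the most spread. The bin on KB708327.1 was at 77.1% ± 3.84 in bypass, 74.0% ± 18.7 in senescent, 83.2% ± 8.56 in transformed-colony, 73.0% ± 17.3 in normal-colony and 82.6% ± 8.75 in B[a]P libraries (SD, n = 4 each), with differences smaller than these spreads. With bins of 2 or more, 185 bins averaged 1.89 points above the B[a]P pools, from -16.9 to 21.1 points, and 18 had all 4 later groups below them. In that mean 2 of the 185 were lower by 10 points and 10 were higher by 10 points. By single groups, 9 were lower by 10 points in bypass, 7 in senescent, 2 in transformed-colony and 8 in normal-colony cultures. By scaffold, the 48 windows on KB708127.1, the scaffold with the most, were at 91.4% ± 0.98 in bypass and 86.9% ± 0.89 in B[a]P libraries, and the 26 on KB708169.1 were at 86.9% ± 1.77 in bypass and 88.1% ± 1.09 in B[a]P libraries (SD, n = 4 each).

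**Figure D5:**
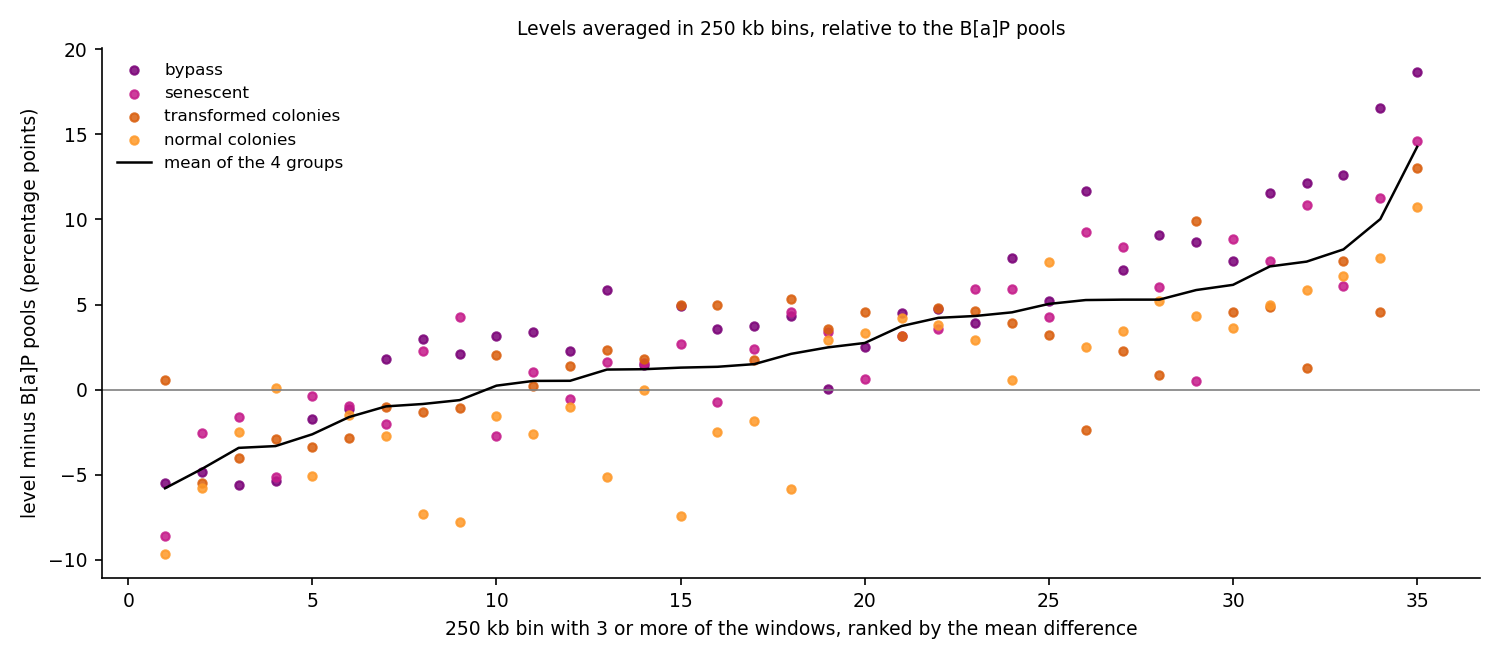
Level minus that of the B[a]P pools (percentage points) in the 35 bins of 250 kb that hold 3 or more sparse methylated windows, ranked by the mean of the bypass, senescent, transformed-colony and normal-colony differences (line); points are the 4 groups. The mean runs from -5.79 to 14.3 points and is below 0 in 9 bins.

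Across the 1466 windows, libraries of the bypass and senescent culture resembled each other more than those of other groups. Pearson's r over windows was 0.49 to 0.60 between bypass libraries, 0.47 to 0.62 between senescent libraries and 0.40 to 0.60 between bypass and senescent libraries. It was 0.30 to 0.38 among transformed-colony, 0.22 to 0.34 among normal-colony, 0.25 to 0.35 among B[a]P and -0.02 to 0.12 among vehicle libraries, which were held at 80% or more in the mean by the choice of windows. These are descriptions over windows that share each library's depth.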

How the data were processed

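Reduced representation bisulfite libraries were made from 100 ng of genomic DNA with the Diagenode Premium RRBS kit, per the labels. The deposited tables give, per the file headers, the coverage count of each CpG position and strand and the percent of its reads that read as C or T. No position under 10 reads was listed. Per the submitters' processing notes, the authors used Bismark 0.22.1 and Bowtie2, Trim Galore 0.5.0, bcl2fastq 2.20.0.42, methylKit 1.10.0 and R 3.6.1. Their roles and settings, the genome build and any removal of PCR copies are not given in the sources used here, so reads may be copies of the same molecules and every test and interval covers counting error and library spread only.

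Methylated reads were computed as coverage times percent C, and 100% of these products for coverage up to 1000 lay within 0.06 of a whole read. Positions were put in 1 kb windows. The 22842 windows with 3 or more positions in each of the 24 libraries were fitted with a quasi-binomial logistic model per comparison, using the 8 libraries of its 2 groups. Dispersions were squeezed with limma 3.58.1 within 10 classes of pooled level, with a floor of 1, in R 4.3.3. An F test with Benjamini-Hochberg adjustment over all windows followed, with calls at an adjusted p below 0.05 and means at least 10 points apart. The code was tested on simulated data with known changes before use.

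The members and lists were chosen with earlier results of these data known. Regions named are the 3 called windows with the largest decrease and the 3 with the largest increase whose groups did not overlap in each comparison, the 3 of smallest p where none was called, and the 3 windows on each side of the level threshold. In 250 kb bins, the rule took bins with 5 or more of the windows, of which there was 1. The bins named beyond it, the 2 scaffolds compared by their windows and the windows shown at single positions were chosen after their values were seen. No 2 replicates held identical values. Alternatives were a pooled level of 5 to 95%, leaving out the top 0.1% of coverage, positions with at least 20 reads, 5 positions per library, positions shared by the 8 libraries with at least 2 per window, no squeezing, limma on arcsine levels, edgeR 4.0.16, a replicate block, each library left out, other limits for the choice of windows, and lower-coverage scaffolds left out. Tables and plots were made with Python 3.11.15, NumPy 2.4.6, pandas 2.3.3 and matplotlib 3.10.9.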

Additional observations from a re-analysis of the deposited data

Results flagged for a closer look

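In 8 of 70 groups of 4 libraries examined, 1 library lay far from the other 3: its gap to the nearest, divided by the range of the group, passed Dixon's 95% critical value for 4 samples. Chance gives about 3.5 at 1 in 20.

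The mean level of the 1466 windows was 90.12% in senescent replicate 2, against 89.29% to 89.35% in the other senescent libraries. That library had a median of 5 positions per window.

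Among single windows, KB708252.1 from 1586001 was at 50.4% in senescent replicate 4, against 46.7% to 47.3% in the others. KB708157.1 from 5788001 was at 99.1% in senescent replicate 3 and at 100% in the others. KB708127.1 from 34421001 was at 98.6% in bypass replicate 1 and at 100% in the others. KB708252.1 from 3404001 was at 97.0% in bypass replicate 4, against 99.7% to 100% in the others. KB708130.1 from 3224001 was at 97.4% in transformed-colony replicate 1, against 99.9% to 100% in the others, and KB708147.1 from 4097001 at 94.0% in that library, against 97.4% to 97.8%. APMT01213469.1 from 1001 was at 100% in B[a]P replicate 4, against 91.7% to 92.0% in the others.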

How the results depend on the processing

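Of the summary values recomputed under alternatives, 350 stayed within 1.5 times a count or 1 SD of a mean and 89 moved. The 18 calls of named windows were tried 290 times, of which 103 lost the call, and none changed sign. The 9 named windows of smallest p that were not called stayed so in 147 of 148 trials. Calls below are given as lower and higher, with the same shares over all windows under that setting after "against". Bypass against B[a]P pools had 21 and 88 of 1466, or 1.43% and 6.003% against 0.928% and 13.2%. Without squeezing it had 10 and 41, or 0.682% and 2.80% against 0.499% and 8.19%. With edgeR it had 2 and 10, or 0.136% and 0.682% against 0.035% and 0.565%. With at least 20 reads it had 9 and 42 of 619, or 1.45% and 6.79% against 1.02% and 12.8%. With 5 positions per library it had 6 and 8 of 214, or 2.80% and 3.74% against 0.455% and 13.6%. The share called higher was thus under that of all windows in these settings, except with edgeR. Windows at 90% or more gave 2 and 26 of 672. Windows chosen on the B[a]P pools, whose values enter this test, gave 43 and 56 of 1509. Higher calls numbered 58 with limma (3.96% against 10.2%), 52 of 932 with shared positions (5.58% against 7.63%) and 48 of 834 with 10 or fewer positions. Senescent culture against B[a]P pools had 12 and 45, or 0.82% and 3.07% against 0.355% and 3.91%. It had 1 and 4 without squeezing (0.0682% and 0.273% against 0.07% and 0.622%), 3 and 16 with limma (0.205% and 1.09% against 0.219% and 2.03%), and 0 and 0 with edgeR (against 0% and 0.00876%). It had 5 and 15 of 619 with at least 20 reads (0.808% and 2.42% against 0.401% and 3.46%), 3 and 5 of 214 with 5 positions (1.402% and 2.34% against 0.253% and 3.85%), and 20 and 69 of 1098 with a pooled level of 5 to 95% (1.82% and 6.28% against 1.30% and 11.2%). It had 1 and 15 of 672 at 90% or more, 7 and 23 of 834 with 10 or fewer positions, and 29 of 970 higher with shared positions (2.99% against 3.30%). Bypass against senescent culture had 8 and 14, or 0.55% and 0.95% against 0.175% and 2.25%. It had 3 and 5 without squeezing (0.205% and 0.341% against 0.035% and 0.425%), 0 and 0 with edgeR (against 0% and 0.00438%), 3 and 8 of 619 with at least 20 reads (0.485% and 1.29% against 0.195% and 2.17%), 1 and 1 of 214 with 5 positions (0.467% and 0.467% against 0.0939% and 2.77%) and 1 and 7 of 672 at 90% or more. Lower calls numbered 4 with limma (0.273% against 0.105%) and 5 of 970 with shared positions (0.515% against 0.435%). Higher calls numbered 25 of 872 with a pooled level of 5 to 95% (2.87% against 6.40%), 9 of 1433 without lower-coverage scaffolds (0.628% against 2.15%) and 8 of 1381 without the top 0.1% of coverage (0.579% against 2.03%). Transformed-colony cultures against B[a]P pools gave 1 higher, in place of 0, with a pooled level of 5 to 95%. The pooled level of 5 to 95% is taken over the libraries compared, so it keeps highly methylated windows mainly when 1 group is lower. The limits on reads, positions and level leave fewer windows, and otherwise the cause was not tested.

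With the replicate number as a block, lower and higher calls were 20 and 85 for bypass and 9 and 44 for senescent culture against B[a]P pools, 7 and 14 for bypass against senescent culture, and 0 and 1 for transformed-colony against normal-colony cultures. Correlations of deviations were -0.03 to 0.03 for same-numbered libraries and -0.04 to 0.04 for others. Of the 4 normal-colony libraries, 3 correlated best with the B[a]P pool of their own number, against 0 to 2 of 4 in the other comparisons. Values this small cannot settle whether the numbers pair the samples.

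For mean differences in points, bypass minus B[a]P was 2.74, with 2.24 at 10 or fewer positions, 1.69 at 5 positions per library and 0.32 with windows chosen on the B[a]P pools. Senescent minus B[a]P was 1.94, with 1.35 at 5 positions and -0.046 when chosen on the B[a]P pools. Transformed-colony minus B[a]P was 1.16, with 1.69 at 90% or more, 0.50 at 5 positions and -0.98 when chosen on the B[a]P pools. Normal-colony minus B[a]P was -0.21, and -2.32 when chosen on the B[a]P pools. Differences from the B[a]P pools in windows chosen on those pools are set in part by that choice. Bypass minus senescent was 0.79, with 0.35 at 5 positions and 0.37 when chosen on the B[a]P pools. B[a]P minus vehicle was -1.83, with -3.11 at 90% or more, -0.95 at 20 reads, -0.60 at 5 positions, 0.50 with the left-out vehicle pool and 2.63 when chosen on the B[a]P pools. The bin on KB708161.1 was 1.18 points above the B[a]P pools, and -1.59 points from them when weighted by reads; bins of 10 or more windows gave no value.

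Leaving out 1 library at a time, vehicle pools included, gave 15 to 24 lower and 61 to 91 higher for bypass against B[a]P pools, 4 to 12 and 20 to 45 for senescent against B[a]P, and 2 to 8 and 7 to 15 for bypass against senescent. Over all windows, in the same order, lower calls made up 0.67% to 0.928%, 0.25% to 0.355% and 0.0613% to 0.175%. Higher calls made up 11.1% to 13.2%, 2.61% to 3.91% and 1.06% to 2.25% of all windows. In the sparse methylated windows the colony comparisons stayed at 0. Mean differences ran from 2.55 to 2.83, 1.74 to 2.08, 0.95 to 1.38 and -0.89 to 0.44 points against B[a]P pools for bypass, senescent, transformed-colony and normal-colony cultures. They ran from 0.67 to 0.99 for bypass minus senescent, 0.72 to 2.05 for transformed-colony minus normal-colony and -2.77 to -1.65 for B[a]P minus vehicle.

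Depth limits single windows: the median window had 253 to 560.5 reads per library, and as few as 38 in a named window.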
